A study of Mus musculus with 6 samples.

Results

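The growth hormone axis of the liver was described here by 10 genes of 56305 in the table, named for their place in the pathway, with earlier results of these data known: the receptors Ghr and Prlr, the kinase Jak2, the transcription factors Stat5a and Stat5b, the feedback inhibitors Socs2 and Cish, the repressor Bcl6, and the secreted products Igf1 and Igfals. RNA-seq was made from 3 WT and 3 Vps15LKO livers, all of male mice, with 1 library for each, taken at 5 weeks of age and at ZT6, that is 6 h after lights on, with chow available at all times. Vps15LKO mice carry floxed Vps15 alleles and a Cre transgene under the albumin promoter (AlbCre+;Vps15 f/f). This design targets Vps15, the regulatory subunit of class 3 PI3K, in cells that express albumin. Whether the other cells of the liver keep it was not measured in these libraries. Whether the WT mice carried the floxed alleles or Cre is not given in the sources used here.

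Growth hormone from the pituitary binds a dimer of its receptor on hepatocytes, which activates the receptor-bound kinase JAK2. JAK2 phosphorylates STAT5, mainly STAT5B in liver, and STAT5 enters the nucleus and switches on Igf1, Igfals, Socs2 and Cish. The secreted IGF1 circulates in a complex with IGFBP3 and the acid-labile subunit that Igfals encodes, SOCS2 and CISH damp the signal of the receptor, and BCL6 is a repressor that competes with STAT5 for its sites. Because pituitary release is pulsatile in male mice, this pathway also sets most sex differences in liver gene expression.

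In Vps15LKO livers the transcripts of both receptors, of Stat5b and of both secreted products were lower, by 1.66-fold for Stat5b up to 7.99-fold for Ghr, and Jak2 was 1.35-fold higher. Stat5a, Socs2, Cish and Bcl6 did not pass the test. All 10 genes passed the filter on low values. The fall was called for 5 of them (Ghr, Prlr, Stat5b, Igf1 and Igfals), in a comparison that called 33% of the 15430 tested genes lower, 33.5% higher and 66.5% in either direction. A gene was called where limma on log2(normalized count + 1) gave a Benjamini-Hochberg adjusted p, taken over every tested gene, below 0.05 together with a change of 1.2-fold or more, and log2 fold changes below are Vps15LKO minus WT on that scale. With libraries scaled to equal read totals the comparison called 1712 genes lower against 10300 higher, and 4 axis genes were called in each direction, Stat5b no longer among the lower ones. On the deposited scale the median log2 fold change of the 10 genes was −0.92, beside −0.02 over all tested genes. The 3 WT and 3 Vps15LKO livers did not overlap for 6 of the 10 genes, against 73.2% of all tested genes, so neither count sets the axis apart from the rest of the transcriptome.

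**Figure D1:**
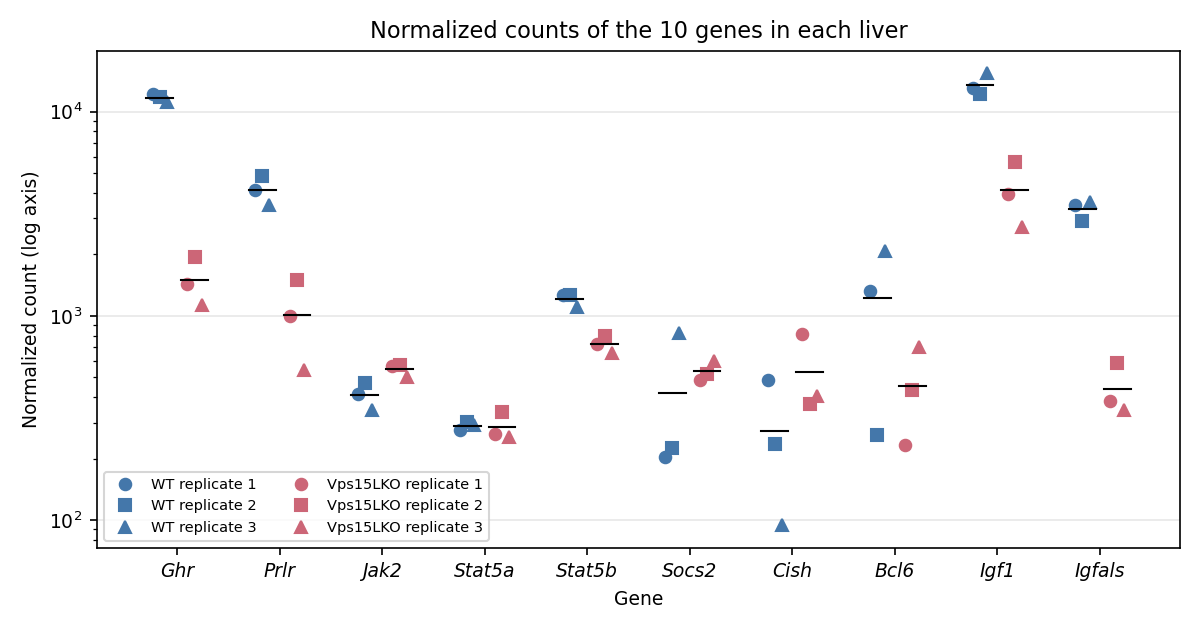
Normalized counts (log axis) of the 10 genes in each liver, WT in blue and Vps15LKO in red, with a symbol for each replicate and a bar at the group mean. Ghr, Prlr, Stat5b, Igf1 and Igfals lie lower in every Vps15LKO liver than in any WT liver, Jak2 lies higher, and Socs2, Cish and Bcl6 spread widely among the WT livers.

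The libraries held between 16137093 and 18110223 reads on genes. A read was worth 1.25 to 1.35 normalized counts in the WT and 0.707 to 0.810 in the Vps15LKO libraries, so the same share of reads appears lower in Vps15LKO liver on the deposited scale. Scaling every library to the same total of reads instead raised the median of all genes by 0.72 on the log2 scale, and the values with equal read totals are given beside the results that turn on this choice. Pik3r4, which encodes Vps15, counted 508, 573 and 460 (normalized) in WT livers against 341, 362 and 355 in Vps15LKO livers, with a log2 fold change of −0.54 (SE 0.11, adjusted p = 0.00207). This difference also turned on the scaling. The reads behind it were 383, 459 and 341 against 446, 447 and 502. With equal read totals the log2 fold change was 0.19 and not called (adjusted p = 0.164). The fall of the targeted transcript thus holds on the deposited scale and not on that of total reads. For fibroblasts, the paper states that the recombined locus yields a truncated Vps15 protein, so counts of the whole gene need not fall with the deletion. In Vps15LKO liver it reports depletion of Vps34 and a build-up of p62 protein. The 10 hepatocyte markers, which include Alb, Apoa1 and Ttr, had reads in every library. Their summed level was 3325800 to 3713300 normalized counts in WT livers against 1050100 to 1562600 in Vps15LKO livers. Of the 10, 8 were called lower at a median of −1.79, against 33% of all tested genes. Alb and Trf were not called, but lay lower in every Vps15LKO liver than in any WT liver. After quantile normalization 5 of 10 were called lower, at a median of −0.46. With limma without a trend, DESeq2 and limma voom 10 of 10 were called lower. In the same livers 10 of 12 macrophage, 11 of 11 stellate and fibroblast and 7 of 7 cholangiocyte markers were higher. So were 6 of 8 tested lymphocyte markers, against 33.5% of all tested genes. After quantile normalization the lymphocyte markers gave 2 lower and 1 higher. In this order of cell types, the summed levels in WT against Vps15LKO livers were 7425 to 8962 against 23482 to 27420, 7904 to 8391 against 33717 to 39578, 1269 to 1420 against 12339 to 23807, and 146 to 186 against 308 to 364. Of the 11 endothelial markers 6 were lower and 4 higher, against 33% and 33.5% of all tested genes. Their sum was 12430 to 13788 in WT and 10379 to 12569 in Vps15LKO livers. With equal read totals 0 of them were lower and 6 higher, where 1712 and 10300 of all 15430 genes were. Because low markers such as Cd3e, Cd2, Nkg7 and Cftr stayed under 20 normalized counts in every WT liver and passed the filter through the Vps15LKO livers alone, the lymphocyte and cholangiocyte counts are a description. No lymphocyte marker and 4 cholangiocyte markers, all higher, reached 20 in all 6 livers. No marker was at 0 in all libraries. In bulk liver, fewer hepatocytes and less RNA of a gene per hepatocyte cannot be told apart, and the part of these shifts in the values below was not tested.

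STAT5 dimers bind the palindrome TTCNNNGAA, which reads the same on both strands. RefSeq start sites on GRCm38.p6 were available for 9 of the 10 genes, and the 250 bases before each of their 17 starts were searched for it. It was found in 5 of these windows, belonging to Bcl6, Igfals and Prlr, against 7.02% of the 32851 windows of all genes. One Bcl6 window held 3 copies, which 0.0274% of all windows did (9 in number). The stretches that hold the palindrome are printed because they place candidate letters for STAT5 next to genes measured here, with the matches in capitals, 5′ to 3′ along the strand of the gene. The first is the Bcl6 stretch with 3 copies (chr16:23981343-23981471, minus strand, in an intron of Bcl6, bases −188 to −60 counted from the start), followed by the other Bcl6 stretch (chr16:23988942-23988990, minus strand, in no annotated gene, bases −138 to −90), the stretches of Igfals (chr17:24877594-24877636, bases −250 to −208, and chr17:24878153-24878201, bases −78 to −30, both plus strand and intronic) and that of Prlr (chr15:10223776-10223824, plus strand, intronic, bases −130 to −82).
Bcl6, 3 matches: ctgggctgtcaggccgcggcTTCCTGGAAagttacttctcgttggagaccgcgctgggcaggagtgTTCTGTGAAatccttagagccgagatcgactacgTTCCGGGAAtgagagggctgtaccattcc
Bcl6, other start: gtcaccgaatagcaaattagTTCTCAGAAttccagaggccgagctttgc
Igfals, first start: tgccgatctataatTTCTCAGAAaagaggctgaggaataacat
Igfals, next start: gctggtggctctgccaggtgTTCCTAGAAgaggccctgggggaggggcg
Prlr: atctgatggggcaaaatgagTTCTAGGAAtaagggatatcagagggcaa
The windows of Ghr, Jak2, Stat5a, Stat5b, Cish and Igf1 did not hold these letters, which says nothing of sites elsewhere in or around these genes. The genes whose windows held the palindrome were therefore both called (Igfals and Prlr) and not called (Bcl6) in the comparison of genotypes. A match of letters is not a measured site, and no binding of STAT5 was measured in these libraries.

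Among the receptors, Ghr (chr15:3317760-3583492, minus strand, GRCm38) encodes the growth hormone receptor, through which the liver senses the hormone. Its normalized counts were 12216, 11855 and 11099 in WT livers against 1431, 1943 and 1132 in Vps15LKO livers. Every Vps15LKO liver was far below every WT liver, the WT livers lay within 1.10-fold of each other, and the Vps15LKO livers spread over 1.72-fold. The log2 fold change was −3.00 (SE 0.18, 95% interval −3.41 to −2.58, adjusted p = 3.59e-06), and 1.34% of the tested genes had a lower one.

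Prlr (chr15:10177238-10349180, plus strand) encodes the prolactin receptor, a relative of Ghr in the same cytokine receptor class that also signals through JAK2 and STAT5. Its normalized counts were 4144, 4839 and 3475 in WT and 998, 1493 and 541 in Vps15LKO livers. The groups did not overlap, and the Vps15LKO livers differed among themselves by 2.76-fold, a log2 spread wider than that of 98.9% of genes of at least 100 normalized counts on average. This was a log2 fold change of −2.14 (SE 0.32, adjusted p = 0.00039), a 4.42-fold fall. A gene model on the same strand, Gm21973, shares 203 bases of exon with Prlr (1.32% of its exons) and had 752 to 994 normalized counts in WT livers against 219 to 405 in Vps15LKO livers. Both receptors were also lower with equal read totals, with log2 fold changes of −2.27 for Ghr and −1.42 for Prlr.

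Both hormones of these receptors are made outside the liver, and neither Gh nor Prl had a read in any of the 6 libraries. Circulating hormone was not measured in this series.

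Jak2 (chr19:29251828-29313080, plus strand) encodes the kinase that sits on both receptors. Its normalized counts were 414, 468 and 346 in WT and 568, 577 and 499 in Vps15LKO livers, so that the lowest Vps15LKO value was just above the highest WT value. Jak2 rose by 0.43 on the log2 scale (SE 0.13, adjusted p = 0.0164), and it was not called without Vps15LKO replicate 1 (0.40, adjusted p = 0.0612). With equal read totals the rise was larger, at 1.15.

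Stat5b (chr11:100780731-100850724, minus strand), the more abundant of the paired STAT5 genes in these livers, had 1262, 1260 and 1104 normalized counts in WT livers against 732, 793 and 659 in Vps15LKO livers. Every Vps15LKO liver was below every WT liver, and the spread within each genotype was small, at 1.14-fold in WT and 1.202-fold in Vps15LKO livers. Stat5b fell, with a log2 fold change of −0.73 (SE 0.10, adjusted p = 0.000294). This fall depended on the scaling, since with equal read totals the log2 fold change was −0.01 and was not called (adjusted p = 0.946), while quantile normalization gave −0.53 (adjusted p = 0.000869).

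Stat5a (chr11:100859351-100885169, plus strand), its neighbour on chromosome 11, had 277, 301 and 293 normalized counts in WT livers against 263, 337 and 255 in Vps15LKO livers. The Vps15LKO values lay on both sides of the WT values, and the log2 fold change was −0.04 (SE 0.13, 95% interval −0.33 to 0.26, adjusted p = 0.817). Its sign turned with the scaling, to 0.69 and a call with equal read totals. The annotated transcripts of Stat5a and Stat5b share 608 words of 50 bases, 8.21% of those of Stat5a and 11.0% of those of Stat5b, and how reads matching both were counted is not given in the sources used here.

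Within a liver, the ratio of 2 genes does not depend on the scaling of the library. The log2 ratio of Stat5a to Stat5b was −2.05 ± 0.14 (SD, n = 3) in WT and −1.36 ± 0.12 (SD, n = 3) in Vps15LKO livers, a shift of 0.70 without overlap. The exact permutation test (two-sided) gave p = 0.1, the smallest that 3 livers against 3 allow. Stat5b was thus reduced relative to Stat5a in each Vps15LKO liver compared with each WT liver, beyond the spread within the genotypes.

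The feedback inhibitors and Bcl6 differed from the genes above in their spread within the WT group. Socs2 (chr10:95385362-95417180, minus strand), an SH2 adaptor that marks the receptor for ubiquitination, had 203, 225 and 828 normalized counts in WT livers against 484, 520 and 598 in Vps15LKO livers. The 3 Vps15LKO livers were close together, whereas WT replicate 3 stood 4.08-fold above WT replicate 1. Their log2 fold change was 0.66 (SE 0.46, 95% interval −0.39 to 1.72, adjusted p = 0.231). Without WT replicate 3 the difference was 1.31 (adjusted p = 6.98e-05), and without any other liver it was not called.

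Cish (chr9:107296026-107302784, plus strand), a related inhibitor that occupies receptor sites used by STAT5, had 487, 235 and 94.4 normalized counts in WT livers against 813, 370 and 406 in Vps15LKO livers. The order of the WT livers was the reverse of that for Socs2, and the genotypes overlapped. The log2 fold change was 1.16 (SE 0.54, 95% interval −0.07 to 2.39, adjusted p = 0.0855). With each liver left out in turn, Cish was called without WT replicate 1 alone (1.73, adjusted p = 0.0142). It was also called with replicate number as a block, although the numbers are not shown to pair the mice. With equal read totals both inhibitors were called higher, at 1.89 for Cish (adjusted p = 0.00595) and 1.39 for Socs2 (adjusted p = 0.0196). The antisense gene Gm17041 overlaps 479 bases of Cish exons (7.46%) and had 271, 122 and 48.5 normalized counts in WT livers against 462, 213 and 223 in Vps15LKO livers. It followed Cish closely in order, and the libraries kept strand by the dUTP method, but whether featureCounts used strand is not given in the sources used here, so reads of the pair cannot be told apart.

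Bcl6 (chr16:23965052-23988852, minus strand) encodes a zinc finger repressor. Its normalized counts were 1326, 261 and 2075 in WT and 234, 433 and 702 in Vps15LKO livers. WT replicate 2 lay within the range of the Vps15LKO livers, and the WT values spread over 7.95-fold. The log2 spread of Bcl6 among the WT livers exceeded that of 99.8% of the 11248 genes with at least 100 normalized counts on average, and those of Cish and Socs2 exceeded that of 99.5% and 99.4%. Between genotypes the log2 fold change was −1.11 (SE 0.71, 95% interval −2.72 to 0.50, adjusted p = 0.192), and the gene was called without WT replicate 2 alone (−1.999, adjusted p = 0.00556). In the WT livers Socs2 and Bcl6 were both highest in replicate 3, where Cish was lowest.

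Of the secreted products, Igf1 (chr10:87858265-87937042, plus strand) encodes the main growth factor that the liver releases in response to growth hormone. It had 13108, 12131 and 15397 normalized counts in WT livers against 3937, 5698 and 2715 in Vps15LKO livers. Every Vps15LKO liver was below every WT liver, and the Vps15LKO livers spread over 2.10-fold against 1.27-fold in WT. Igf1 fell 3.43-fold, a log2 fold change of −1.78 (SE 0.25, 95% interval −2.34 to −1.21, adjusted p = 0.000262), which was −1.05 with equal read totals and −0.91 after quantile normalization, both still called.

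Igfals (chr17:24865997-24882010, plus strand), whose protein holds IGF1 in the long-lived circulating complex, had 3483, 2900 and 3607 normalized counts in WT livers against 382, 590 and 345 in Vps15LKO livers. The groups lay far apart, with spreads of 1.24-fold and 1.71-fold within them. Igfals fell 7.75-fold (log2 fold change −2.95, SE 0.19, adjusted p = 5.28e-06), and the log2 fold change was −2.23 with equal read totals.

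Among the Vps15LKO livers, replicate 2 had the highest and replicate 3 the lowest value of Ghr, Prlr, Igf1 and Igfals alike. The summed hepatocyte markers had the same order, with 1319200, 1562600 and 1050100 normalized counts in replicates 1 to 3. The summed stellate and fibroblast markers were 33717, 36427 and 39578 in these livers, and the summed cholangiocyte markers 15790, 12339 and 23807. The liver with the lowest level of these 4 genes thus had the highest of both sums. Each cholangiocyte marker was highest there. The stellate markers Lrat, Reln and Dcn were lowest there, and the others of that list highest. The same liver had the least of the summed macrophage (27420, 26987 and 23482), endothelial (11286, 12569 and 10379) and lymphocyte markers (364, 310 and 308). Single markers went the other way: Lyz2, Cd68, Cd3e and Cd2 were highest in that liver, while most macrophage markers were lowest. The part of these cell markers in the spread of the 4 genes was not tested. The summed level of the 10 axis genes was 34476 to 38318 normalized counts in WT livers against 7852 to 12753 in Vps15LKO livers.

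**Figure D2:**
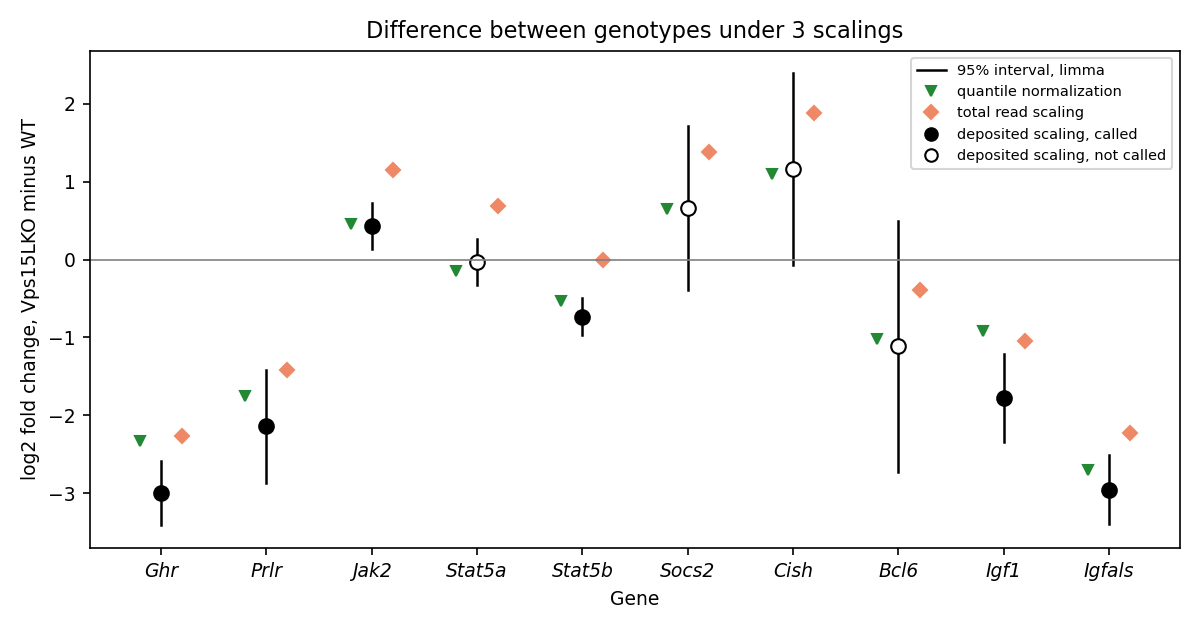
log2 fold change (Vps15LKO minus WT) of each gene on the deposited scale with its 95% interval (circles, filled where called), after quantile normalization (triangles) and with equal read totals (diamonds). Ghr, Prlr, Igf1 and Igfals stay below 0 under all 3 scalings, Stat5b moves from −0.73 to −0.01 with equal read totals, and Stat5a changes sign.

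The ratios between axis genes within a liver show where the fall was uneven. In WT livers Igf1 and Ghr had similar counts, with log2 ratios of 0.10, 0.03 and 0.47, while in Vps15LKO livers Igf1 exceeded Ghr, with 1.46, 1.55 and 1.26. Igf1 therefore fell less than Ghr, by a log2 difference of 1.22 (2.33-fold), and by 1.18 (2.26-fold) less than Igfals, again without overlap. The log2 ratio of Prlr to Ghr rose by 0.86, from −1.51 ± 0.20 to −0.65 ± 0.36 (SD, n = 3 each). Relative to the receptor transcript, the kinase and the inhibitor were several-fold higher in Vps15LKO livers: the log2 ratio of Jak2 to Ghr went from −4.85 ± 0.17 to −1.42 ± 0.30 and that of Socs2 to Ghr from −5.12 ± 1.197 to −1.46 ± 0.50 (SD, n = 3 each). These shifts were 10.7-fold and 12.7-fold and did not overlap. That of Socs2 to Ghr ranged from 3.27 to 4.35 on the log2 scale as each liver was left out, the highest without WT replicate 3. The ratios of Cish to Socs2 (shift 0.50) and of Bcl6 to Stat5b (shift −0.38) overlapped between genotypes. Of the 8 ratios compared, 6 did not overlap and gave p = 0.1 in the exact permutation test, and the others gave p = 0.9 and p = 0.8. No adjustment over the 8 could bring a value below 0.1.

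**Figure D3:**
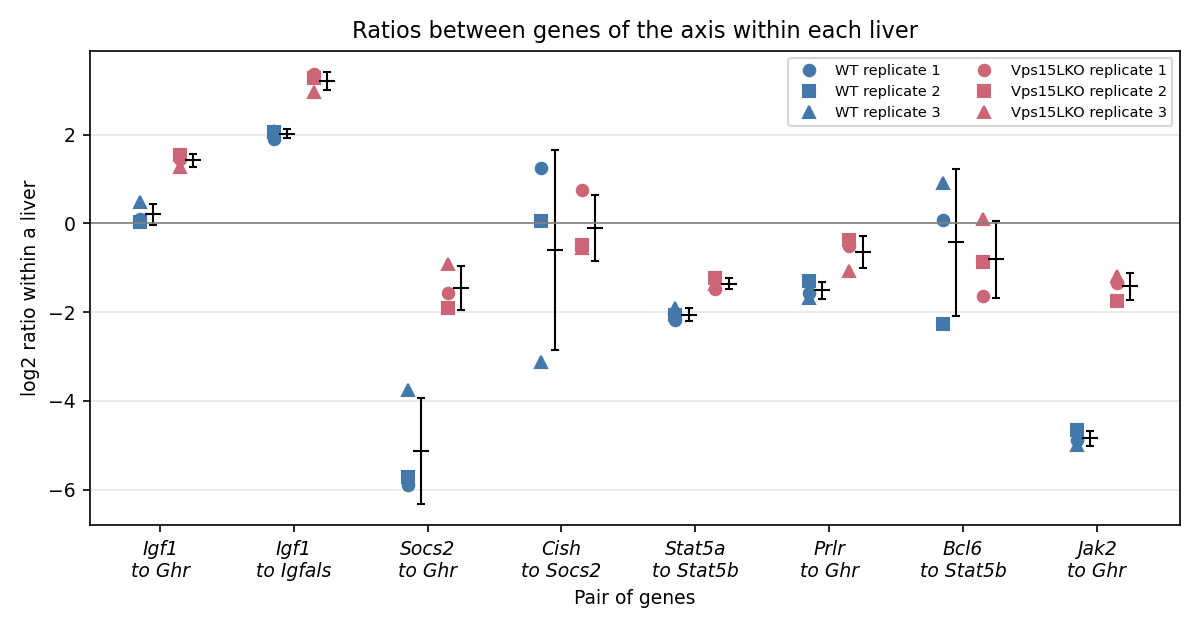
log2 ratio of the normalized counts of 2 genes within each liver for 8 pairs, WT in blue and Vps15LKO in red, with the group mean and SD beside the points (n = 3 livers each). For 6 pairs all Vps15LKO livers lie above all WT livers, and for Cish to Socs2 and Bcl6 to Stat5b the genotypes overlap.

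To compare levels between genes, RPKM was computed from the recovered reads, the length of each gene's exons and the reads of the library, a scale that is relative to the total of reads and not to the size factors. In WT livers Igf1 (60.6 ± 9.49 RPKM), Ghr (57.2 ± 0.764) and Igfals (46.5 ± 5.94, SD, n = 3 each) headed the order, and Igf1 overlapped with Ghr while Igfals lay below Ghr in each liver. Prlr (11.9 ± 1.82) and Stat5b (9.63 ± 0.449) followed without overlap between them. Bcl6 (8.12 ± 6.26) overlapped with the genes above and below it, and Jak2 (3.59 ± 0.484), Socs2 (1.98 ± 1.75), Cish (1.84 ± 1.28) and Stat5a (1.80 ± 0.133) were the lowest, with Socs2 and Cish overlapping their neighbours. In WT livers the receptor level was thus about as high as that of the main product, and the STAT5 genes and the kinase were well below both.

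In Vps15LKO livers Igf1 still had the highest level (29.9 ± 8.92 RPKM, SD, n = 3), and Ghr (12.0 ± 2.46), Igfals (10.02 ± 2.34) and Stat5b (9.58 ± 0.226) stood next to each other. The levels of Igfals overlapped with those of Ghr and of Stat5b. Jak2 (7.95 ± 0.258), Cish (6.04 ± 2.82), Bcl6 (5.05 ± 2.88) and Prlr (4.72 ± 1.94) came next with overlapping livers, followed by Socs2 (4.12 ± 0.694) and Stat5a (2.91 ± 0.280). Among all tested genes, the level of Ghr stood at percentile 94.5 to 94.6 in the WT livers and 66.6 to 77.8 in the Vps15LKO livers, and that of Igf1 at 94.3 to 95.5 and 83.1 to 91.1.

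Of the 18 other JAK, STAT, SOCS and PIAS genes, all tested, 2 were called lower, 4 higher and 12 neither. Among all tested genes 33% were lower and 33.5% higher, so a smaller share of this list was called. Its median log2 fold change was 0.10, beside −0.02 for all tested genes. Of the rises, Stat4 and Socs1 had under 20 normalized counts in 2 or 3 of the WT livers, and with 20 required in all 6 livers 16 were tested, 2 were lower and 2 higher. Stat3, which the interleukin 6 receptor activates, had 2394 ± 258 normalized counts in WT livers against 2499 ± 31.6 in Vps15LKO livers (SD, n = 3 each, log2 fold change 0.07, adjusted p = 0.581), and was called higher with equal read totals (0.79) and after quantile normalization (0.54). Socs5 was higher at 1.41 (adjusted p = 7.93e-05) and the lymphoid kinase gene Jak3 at 0.81 (adjusted p = 0.00093). Pias2 (−0.69, adjusted p = 0.000184) and Socs7 (−0.44, adjusted p = 0.0094) were lower, but with equal read totals both were near or above 0 and not called (0.04 and 0.28). With equal read totals 16 of the 18 were called higher and none lower, where 10300 and 1712 of all 15430 genes were. The median was then 0.83, beside 0.70 for all genes.

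Adaptors, kinases and phosphatases that act on the same receptors gave 4 lower and 6 higher of 14, with a median of 0.11. The share called was near the 66.5% of all tested genes. With equal read totals 1 was lower and 11 higher, where 1712 and 10300 of all 15430 genes were. Src, a kinase that the growth hormone receptor can activate beside JAK2, rose from 65.9 ± 7.35 to 745 ± 95.5 normalized counts (SD, n = 3 each, log2 fold change 3.48, adjusted p = 5.42e-07). Ptpn6, the phosphatase SHP-1 of blood cells, rose by 0.84 (adjusted p = 0.000155), and Ptpn1, a phosphatase of JAK2, by 0.68 (adjusted p = 0.000131). Sos1, an activator of RAS, fell by 1.09 (adjusted p = 5.14e-05). The fall of Sh2b1, an adaptor that enhances JAK2, was −0.76 (adjusted p = 0.000116) on the deposited scale and −0.03, not called, with equal read totals.

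Of the other cytokine receptors 12 of 19 tested were higher, against 33.5% of all tested genes, and 4 were lower, as Ghr and Prlr were, with a median of 1.07 (17 higher and 2 lower with equal read totals, where 10300 of 15430 genes were higher). Lifr, the receptor for leukaemia inhibitory factor, fell with a log2 fold change of −2.74, from 7669 ± 2686 to 1129 ± 280 normalized counts (SD, n = 3 each, adjusted p = 2.66e-05), and Il6ra, the interleukin 6 receptor, with −1.59 (adjusted p = 8.26e-06). Osmr, the oncostatin M receptor, rose by 2.55 (adjusted p = 6.3e-06) and Csf3r, the receptor for granulocyte colony-stimulating factor, by 2.16 (adjusted p = 3.47e-06). Ghr, Lifr, Il6ra and Prlr were lower under both scalings. As stated above, most macrophage and stellate markers were higher in the same livers, and their part in the rise of Osmr and Csf3r was not tested.

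Genes that shed or degrade the receptor and the SOCS-box ligase genes gave 3 lower and 1 higher of 9, with a median of −0.20 (0 lower and 7 higher with equal read totals, where 10300 of all 15430 genes were higher). The share called lower was that of all tested genes, 33%. Adam17, the protease that releases the outer part of the growth hormone receptor, was higher at 0.43 (adjusted p = 0.00884). The falls of Skp1a (−0.56) and of the ligase scaffold Cul5 (−0.47) were not called with equal read totals, where their log2 fold changes were 0.17 and 0.26.

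IGF1 acts with a set of binding proteins and receptors, of which 3 of 11 were lower and 7 higher, beside 33% and 33.5% of all tested genes, at a median of 0.78 (1 lower and 8 higher with equal read totals, with 1712 and 10300 of 15430 genes). The binding protein gene Igfbp1, which insulin represses in liver, rose from 1242 ± 571 to 12393 ± 1999 normalized counts (SD, n = 3 each, log2 fold change 3.40, adjusted p = 1.43e-05), and the fetal growth factor gene Igf2 from 24.7 ± 10.1 to 350 ± 86.1 (3.83, adjusted p = 1.94e-05). Igfbp3, whose protein joins IGF1 and the acid-labile subunit, was higher at 0.61 (adjusted p = 0.0109), opposite to the other members of the ternary complex. Igfbp4 was lower at −1.64 (adjusted p = 6.54e-05), at −0.91 with equal read totals and at −0.46 after quantile normalization, called in each case. Igfbp2 was lower at −1.04 (adjusted p = 0.000375) but at −0.31 and not called with equal read totals, and at 0.02 after quantile normalization. Igf1r, the receptor for IGF1, rose by 1.75 from a low level of 48.3 ± 4.36 normalized counts, Igf2r by 0.84, Igfbp6 by 0.78 and Igfbp7 by 1.56, although Igfbp6 was not called after quantile normalization (0.21). The insulin receptor gene Insr had −0.76 (adjusted p = 0.0005) on the deposited scale and −0.03, not called (adjusted p = 0.801), with equal read totals. Igfbp5 had −0.12 (adjusted p = 0.52), and with equal read totals it was called higher at 0.61.

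Many sex-biased liver genes depend on the pulsatile, male pattern of growth hormone and STAT5B. Neither the hormone nor STAT5 activity was measured here, and the part of that signal in the values below was not tested. Of 18 male-biased genes 17 were tested. Of these, 16 were lower and none higher, against 33% and 33.5% of all tested genes. The median log2 fold change was −4.55, beside −0.02 for all tested genes. Their summed level was 260510 to 301420 normalized counts in WT livers against 4739 to 12701 in Vps15LKO livers, without overlap. Mup3 held the largest part of the WT sum, at 158350 ± 17737 normalized counts, against 505 ± 591 in Vps15LKO livers (SD, n = 3 each). Elovl3, a fatty acid elongase gene of male liver, had 1655, 1566 and 1986 normalized counts in WT livers, and 1, 0 and 0 reads in the Vps15LKO libraries. Mup1, a major urinary protein gene, had 3493, 5119 and 11385 normalized counts in WT livers against 3.05, 7.29 and 0 in Vps15LKO livers, and near-identical Mup copies make its count uncertain. WT replicate 3 stood apart in these genes, with the highest WT value for 15 of the 17, and without it 15 were lower at a median of −4.14. Cyp7b1, an oxysterol hydroxylase gene, had 1947, 2111 and 5508 normalized counts against 93.2, 94.0 and 68.6. Selenbp2 alone was not called (−1.71, adjusted p = 0.11), although it was after quantile normalization (−2.17). With equal read totals 15 of the 17 were called lower at a median of −3.83, where 1712 of all 15430 genes were lower. Some, such as Elovl3 and Mup1, passed the filter through the WT livers alone. Of the 10 that reached 20 normalized counts in all 6 livers, 9 were lower at a median of −3.81.

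Of 21 female-biased genes 17 were tested, and 8 were higher, 5 lower and 4 neither, at a median of 0.47. Among all tested genes 33.5% were higher and 33% lower. With equal read totals 9 of the list were higher and 4 lower, where 10300 and 1712 of all 15430 genes were. Some of the risers, such as Sult2a2 and Cux2, passed the filter through the Vps15LKO livers alone, and of the 12 genes that reached 20 normalized counts in all 6 livers 4 were higher and 5 lower, at a median of −0.15. The balance of the list thus depended on the filter. WT replicate 3 had the lowest WT value for 10 of the 16 genes plotted, and without that liver 8 of the 17 tested were higher and 6 lower, at a median of 0.43. Cyp2a4, a steroid hydroxylase gene, had 325, 363 and 357 normalized counts in WT livers against 19146, 15367 and 12222 in Vps15LKO livers, a log2 fold change of 5.46 (SE 0.16, adjusted p = 1.44e-07). Sult2a2, a sulfotransferase gene, had 0, 0 and 2 reads in the WT libraries, and 122, 107 and 90.5 normalized counts in the Vps15LKO livers. Cyp2c69 (−3.27, adjusted p = 0.00145) and Cyp2c40 (−3.20, adjusted p = 0.000272), both female-biased cytochrome genes, were lower instead. Male-biased genes were thus lower as a group, while female-biased ones included rises and falls.

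**Figure D4:**
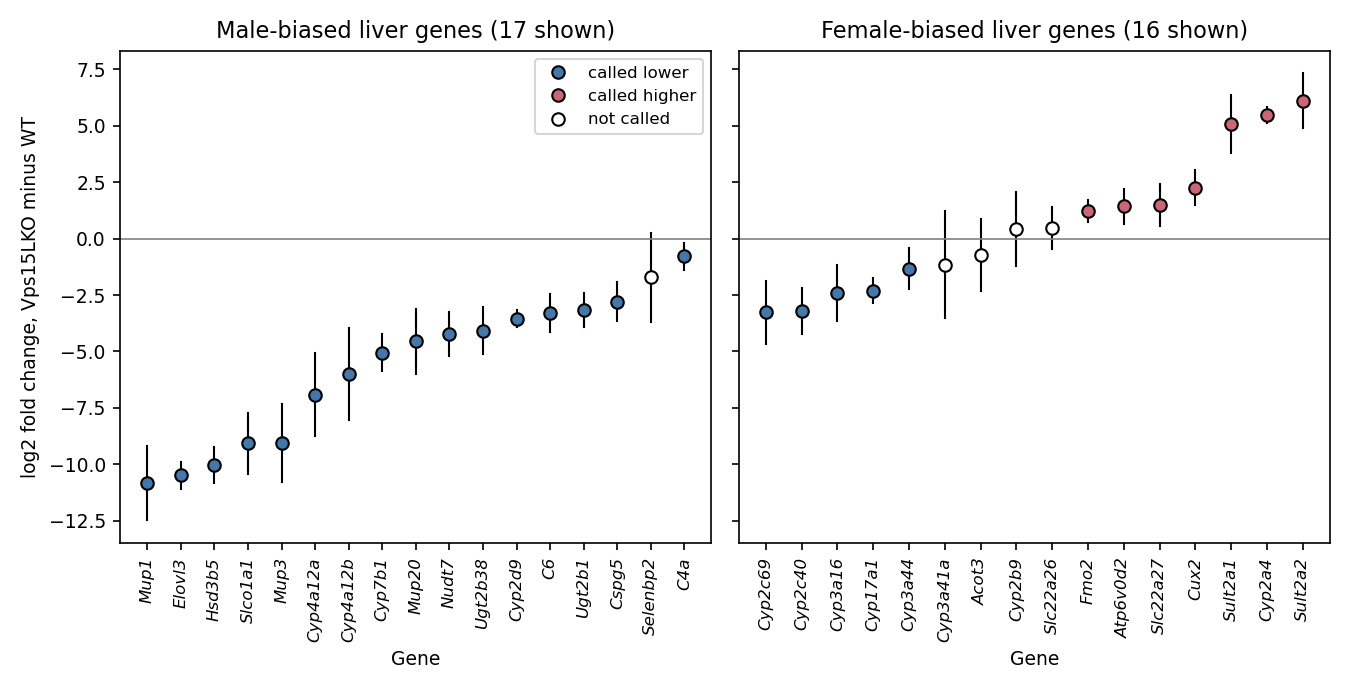
log2 fold change (Vps15LKO minus WT, log2 normalized count + 1) with its 95% interval for 17 male-biased and 16 female-biased liver genes (1 tested female-biased gene is not shown), filled where called lower (blue) or higher (red). On the left 16 of 17 lie below 0 and are called, and on the right 7 of those shown are called higher and 5 lower.

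Of the 8 regulators of sex-biased expression, 4 were lower and 2 higher, at a median of −0.78. The share called was near the 66.5% of all tested genes. With equal read totals 3 were lower and 3 higher, where 1712 and 10300 of all 15430 genes were. Cux2, a factor of female liver that represses male-biased genes, was higher, from 14.3 ± 4.07 to 74.4 ± 31.8 normalized counts (SD, n = 3 each, log2 fold change 2.26, adjusted p = 0.000397). The nuclear receptor genes Rxra (−1.42, adjusted p = 5.43e-05) and Hnf4a (−1.38, adjusted p = 7.43e-05) were lower, also with equal read totals (−0.70 and −0.66) and, by less, after quantile normalization (−0.55 and −0.33). Trim24, a corepressor of nuclear receptors, was higher at 0.78 (adjusted p = 0.000239). Onecut1, which encodes HNF6, had 297, 306 and 954 normalized counts in WT livers against 270, 216 and 182 in Vps15LKO livers, and it was not called (−1.01, adjusted p = 0.0549). Its log2 fold change ranged from −1.30 to −0.45 as each liver was left out, with a call in 3 of the 6 cases, each of them without a WT liver, and the −0.45 was without WT replicate 3. Onecut1 was also called lower after quantile normalization (−1.12), with edgeR (−1.18) and with replicate number as a block (adjusted p = 0.0491).

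The genes whose log2 normalized counts followed Igf1 most closely over the 6 livers were Gm29017, Gm15962 and Pnpla7, with Pearson correlations of 0.999 each among 11248 genes. Gm29017 had 140 to 179 normalized counts in WT livers against 45.3 to 81.8 in Vps15LKO livers, and Pnpla7, a lysophospholipase gene, 2039 to 2362 and 1022 to 1421. For Ghr they were Tmem243, Narf and Lmf1, the last of which is a chaperone gene of lipases. These correlations describe 6 livers of 2 genotypes that differ in most genes: 1960 genes exceeded 0.95 with Igf1 and 2799 with Ghr.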

How the data were processed

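Reads were cleaned with SOAPnuke, aligned to GRCm38 with HISAT2 and assigned to genes with featureCounts of Subread by the authors. They deposited a signal, in which each gene count is divided by the DESeq2 size factor of its library, for 56305 genes. Tool versions and the strand and multi-mapping settings are not given in the sources used here. Dividing each value by what 1 read is worth in its library gave whole numbers throughout (tolerance 0.01), and these recovered reads were used where a step needs counts.

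Groups and replicate numbers come from the sample labels, age and time from the methods. The filter kept 15430 genes, those reaching 20 normalized counts in 3 or more of the 6 livers, and log2(normalized count + 1), which understates changes of low genes, was compared with limma 3.58.1 (trend) in R 4.3.3. p-values measure the spread between 3 livers per genotype and cover no other source of error. In limma the spread of each gene is also drawn toward a trend with level over all genes. The axis genes, gene lists and tests were chosen with earlier results of these data known, and the lists were written by hand. Named are the 10 axis genes, in each list the 2 largest called rises and falls among genes of at least 50 normalized counts on average, all IGF partners and ligands, the 3 genes most like Igf1 and Ghr, and Pik3r4. Stat3, Stat4, Socs1, Ptpn1, Cyp7b1, Selenbp2, Cux2, Onecut1 and Mup3 were added after their values were seen. So were the markers Cd3e, Cd2, Nkg7, Cftr, Lrat, Reln, Dcn, Lyz2, Cd68, Alb and Trf. Some genes of the lists are counted but not reported by name here. Alternatives were pseudocounts of 0.1 and 10, other filters, TMM, upper quartile, total read and quantile scaling, limma without a trend, limma voom, edgeR 4.0.16 and DESeq2 1.42.0 on the recovered reads, a fold of 1.5, a replicate block and each liver left out. The list counts and Pik3r4 under these alternatives were added after seeing the data. The fits were tested on simulated data. Positions come from GENCODE M21 (GRCm38), which matched 55227 genes and all 10 axis genes, and promoter letters from RefSeq (GRCm38.p6). Ratios were tested with SciPy 1.17.1 (exact permutation, two-sided), tables made with Python 3.11.15 and plots with matplotlib 3.10.9.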

Additional observations from a re-analysis of the deposited data

How the results depend on the processing

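With 3 livers per genotype, changes of the size of the Socs2, Cish and Bcl6 intervals could not be told from 0. Ghr, Prlr, Igf1 and Igfals were called lower under every alternative run. With equal read totals 1712 genes were called lower and 10300 higher, in place of 5099 and 5163, and of the axis genes 4 were lower and 4 higher, with Stat5b at −0.007, Stat5a at 0.69, Socs2 at 1.39 and Cish at 1.89. Pik3r4 was at 0.189 there and below 0 in every other setting. Stat5a, never called elsewhere, was also above 0 with TMM (0.005), upper quartile scaling (0.087), edgeR (0.016) and voom (0.004). A fold threshold of 1.5 left 0 axis genes called higher. The cause was not tested.

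Leaving out 1 liver gave 0 to 2 axis genes called higher and 5 to 6 lower. The log2 fold change of Jak2 ranged from 0.31 to 0.53 (0.40, not called, without Vps15LKO replicate 1), of Stat5a from −0.163 to 0.039, of Socs2 from 0.30 to 1.31, of Cish from 0.55 to 1.73 and of Bcl6 from −1.999 to −0.51. The ratio of Cish to Socs2 ranged from −0.76 (without WT replicate 3) to 1.43 and that of Bcl6 to Stat5b from −1.30 to 0.29 (0.29 without WT replicate 3 and 0.04 without Vps15LKO replicate 1).

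With replicate number as a block 2 axis genes were called higher, Jak2 and Cish (1.16, adjusted p = 0.00634), and the block changed no other call among the 10 genes. The numbers are not shown to pair the mice: the deviations of same-numbered livers correlated at −0.01, −0.01 and 0.05, and not every liver correlated best with its own number.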
